A study of Rattus norvegicus with 9 samples.

Results

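Described here are 8 genes of endothelial adhesion and of the NF-kB pathway in rat thoracic aorta: the adhesion molecule genes Vcam1, Icam1, Sele and Selp, the NF-kB subunit genes Nfkb1 and Rela, the inhibitor gene Nfkbia and the transcription factor gene Irf1. They were taken by name, as every feature whose only gene symbol was one of these 8, and the names were selected on earlier values of the same arrays, in which Vcam1 had a single sign in all animal pairs. All 8 were measured, by 9 features of 22575. In the table used for tests they were 8 of 19478 rows, of which 9653 carried a gene symbol.

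Each array of the study set the RNA of a rat born to a diabetic mother (DMO) against that of a rat born to a control mother (CMO). Both RNAs came from whole thoracic aorta, and 1 was labelled with Cy3 and the other with Cy5. In 5 arrays the DMO animal was on Cy3 and in 4 on Cy5. The 9 arrays held 5 pairs of animals, named here by the DMO animal: 193 (against CMO 189), 194 (190), 197 (191), 199 (192) and 220 (216), and pair 194 was on 1 array only. Strain, sex, age, litter and the way the mothers were made diabetic are not given in the labels, so these limits of the model cannot be described. In whole aorta, fewer cells of a type and less RNA per cell cannot be told apart. A log ratio holds no level, so the presence of endothelium, smooth muscle or blood cells in the tissue could not be checked from their markers.

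All values below are log ratios as deposited. The base of the logarithm is not stated and was taken as log2, and for that reason fold changes are left out. Neither the direction of the ratio nor whether dye-swapped arrays had been turned to run one way is stated, so values are called positive or negative, not higher or lower in DMO. Where 2 values are given for a pair, the array with DMO on Cy3 comes first, and values listed without pair names follow the order 193, 194, 197, 199, 220 (193, 197, 199, 220 for the arrays with DMO on Cy5). All arrays carry the same date in the labels. Across the 19478 rows the 2 arrays of a pair followed each other in pair 197 (r = 0.67, same sign in 68.4% of rows) and hardly in the others, with r of 0.18, -0.19 and 0.068 and the same sign in 43.9%, 44.1% and 46.5% of rows in pairs 193, 199 and 220. Pair 199 was the one with a negative r. Rows are not independent of each other. The array medians lay between -0.057 and 0.088 and the array SD between 0.27 and 0.57.

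Leukocytes leave the blood in steps. The selectins encoded by Sele and Selp slow them to a roll on the endothelium, and the immunoglobulin-type molecules encoded by Vcam1 and Icam1 then hold them through leukocyte integrins. In arteries, Vcam1 is known as an early endothelial marker of inflammation, and it can also be made by smooth muscle cells. NF-kB dimers, of which the Nfkb1 and Rela products form the classical one, wait in the cytoplasm bound to the inhibitor that Nfkbia encodes. When the inhibitor is degraded the dimers enter the nucleus and switch on adhesion molecule genes, and also Nfkbia, which closes a negative feedback loop. Irf1 encodes an interferon-induced factor that acts together with NF-kB at the human VCAM1 promoter.

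Promoter windows of Vcam1, Icam1 and Nfkbia are shown because NF-kB is known to act on these 3 genes, and because their log ratios went different ways in the pairs, as described below. RefSeq sequences of the GRCr8 build run from 250 bases before to 50 bases after the 1 start that the sequence table uses for a gene, and were found for 7 of 8 genes, all but Selp. That start is the outermost one of the RefSeq gene table for Vcam1, Rela and Irf1. It lies 157 bases inside the gene for Icam1, 235 for Nfkbia, 435 for Nfkb1 and 517 for Sele, so the windows of Nfkb1 and Sele lie wholly inside the gene. Capitals mark the words GGGANTTCC and GGGANTTTC, 2 forms of the kB site, searched on both strands, and the word TATAAA of the TATA box, searched on the sense strand; no match overlapped another. The Vcam1 window is chr2:206742734-206743033 on the minus strand, that of Icam1 chr8:27829595-27829894 on the plus strand, and that of Nfkbia chr6:78597023-78597322 on the minus strand.
Vcam1: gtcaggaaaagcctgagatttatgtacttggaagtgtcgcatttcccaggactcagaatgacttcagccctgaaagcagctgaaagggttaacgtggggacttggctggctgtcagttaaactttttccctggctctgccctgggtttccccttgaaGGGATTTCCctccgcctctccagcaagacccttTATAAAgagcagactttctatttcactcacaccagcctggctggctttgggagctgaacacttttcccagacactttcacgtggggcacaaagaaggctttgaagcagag
Icam1: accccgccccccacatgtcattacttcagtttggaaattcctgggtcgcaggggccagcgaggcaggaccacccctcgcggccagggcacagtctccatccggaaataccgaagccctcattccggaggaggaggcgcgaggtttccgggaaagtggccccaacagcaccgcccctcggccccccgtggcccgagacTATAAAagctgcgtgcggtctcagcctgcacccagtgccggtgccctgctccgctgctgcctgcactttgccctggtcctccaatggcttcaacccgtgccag
Nfkbia: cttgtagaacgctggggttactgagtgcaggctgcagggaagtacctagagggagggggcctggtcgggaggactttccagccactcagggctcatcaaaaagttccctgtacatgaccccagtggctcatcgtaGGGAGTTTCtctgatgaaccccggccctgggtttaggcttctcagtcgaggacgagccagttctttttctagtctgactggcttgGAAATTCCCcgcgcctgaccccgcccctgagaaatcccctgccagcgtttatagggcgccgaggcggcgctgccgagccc

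The Vcam1 window held 1 kB word, GGGATTTCC, whose first base lies at position -93 from the table's start, and a TATAAA at -60. Counted from the table's start, Nfkbia held 2, GGGAGTTTC at -115 and the minus-strand word GAAATTCCC at -30, both of them inside the gene by its outermost start. The Nfkb1 window, inside the gene, held GGGAATTTC. In the windows of Icam1, Rela and Irf1 neither kB word was found, nor in the Sele window, which does not reach the sequence before the outermost start. Icam1 held a TATAAA at -53 from the table's start. Of all 33469 rat windows in the table, 2.76% held either word and 8.80% held TATAAA. These are matches of letters, not binding sites. Only these 2 words were searched, so a window with or without them may hold other forms of the kB site. The Icam1 window, for example, holds ggaaattcc, and the Vcam1 window holds gggtttcccc just before its marked kB word. Neither search word matches these.

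Vcam1 was negative on each of the 9 arrays. Its log ratios were -0.15, -0.60, -0.89, -0.98 and -0.78 with DMO on Cy3. They were -0.26, -0.67, -0.89 and -0.83 with DMO on Cy5. Pair 193 lay nearest to 0 in both orientations, and the other pairs formed a group at -0.60 and below. Within a swapped pair the 2 arrays were 0.11 apart on average and 0.22 apart at most, the smallest gap of the 8 genes. The mean over pairs was -0.66 ± 0.28 (SD, n = 5 pairs). Of all rows, 0.339% were negative on each array, and 6.16% had a single sign in all 5 pair means. Vcam1 and Nfkb1 were the members with such a sign, and as the names were chosen from this contrast, nothing is read from that count.

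If the arrays with DMO on Cy5 had not been turned before deposit, the values of Vcam1 would largely cancel. With their sign turned, its mean would be -0.13 ± 0.27 (SD, n = 5 pairs), with 3 of 5 pairs negative, and most of that mean is the single array of pair 194. The same array of pair 194 enters both readings unchanged. Every statement on the sign of Vcam1 over the pairs therefore holds for the values as deposited. Medians of 11 heat shock genes, described below, kept their sign across the dye swap and differed between pairs. They were -0.45, -0.0050, 1.33 and 1.44 with DMO on Cy3 (pairs 193, 197, 199, 220). The arrays with DMO on Cy5 gave -0.42, -0.38, 1.26 and 1.20. Over all rows, 43.9% to 68.4% shared a sign within a pair. Which reading holds was not tested.

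**Figure D1:**
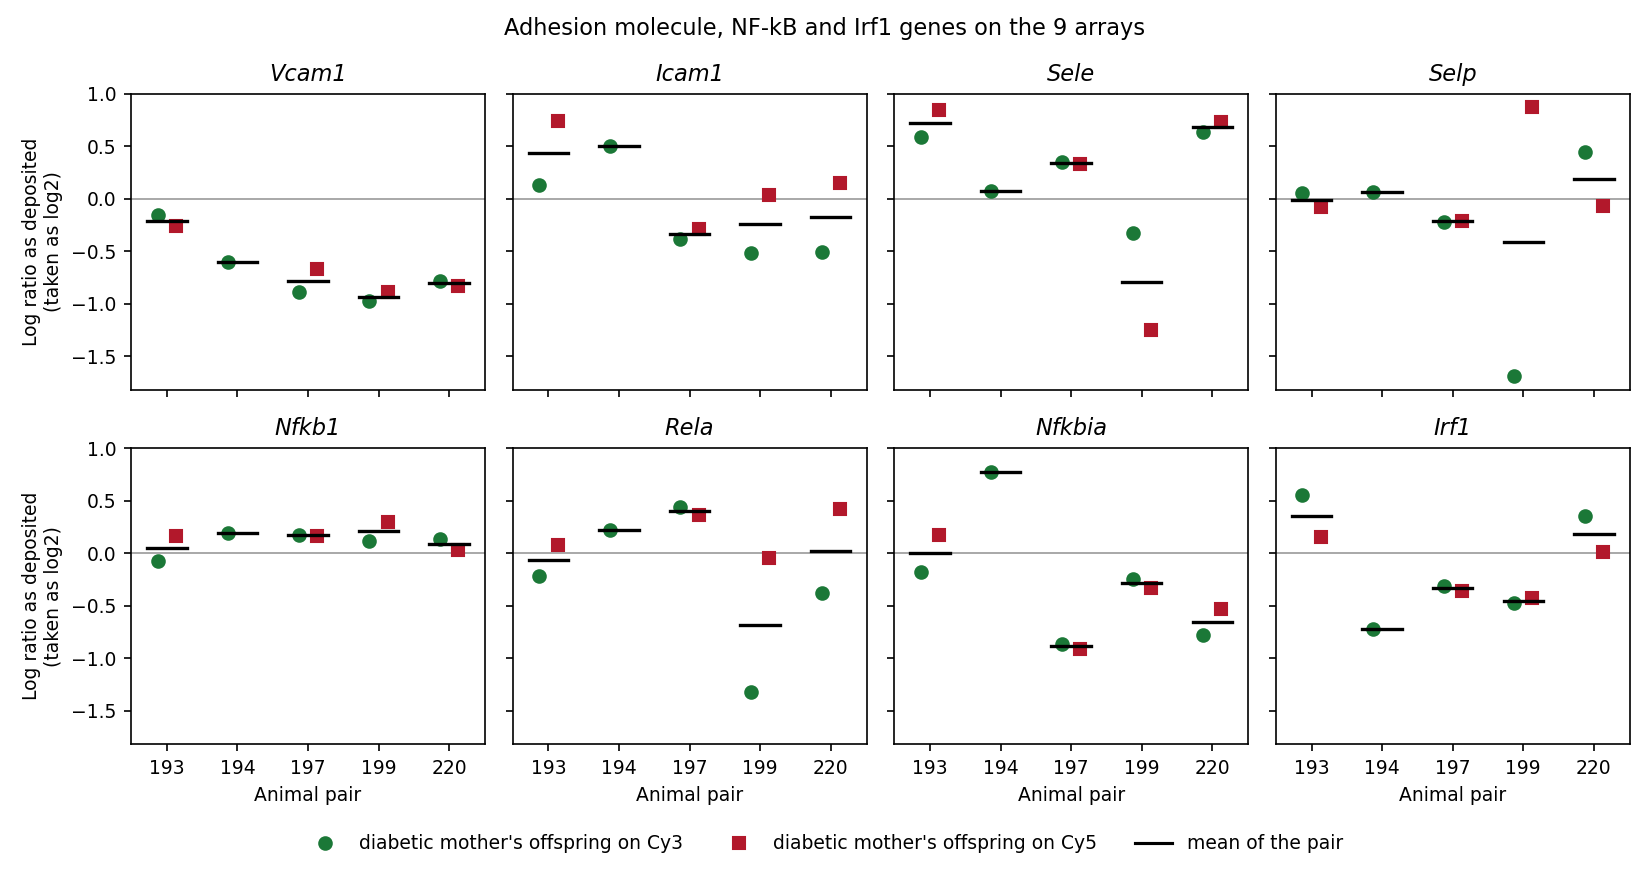
Log ratio as deposited (vertical axis, taken as log2) of the 8 genes in each animal pair (horizontal axis). Circles are arrays with DMO on Cy3, squares those with DMO on Cy5, and the short line is the pair mean. Vcam1 is below 0 on all 9 arrays, between -0.15 and -0.98, whereas the 2 arrays of Selp in pair 199 lie at -1.69 and 0.87.

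The other adhesion molecules did not share the pattern of Vcam1. Icam1, whose product binds leukocyte integrins as VCAM1 does, was at 0.13, 0.50, -0.38, -0.52 and -0.50 in pairs 193, 194, 197, 199 and 220 with DMO on Cy3. With DMO on Cy5 it was at 0.74, -0.29, 0.033 and 0.15 in pairs 193, 197, 199 and 220. Positive pair means stood in pairs 193 and 194 (0.44 and 0.50) and negative ones in pairs 197, 199 and 220 (-0.33, -0.24 and -0.18), so the gene averaged 0.038 ± 0.40 (SD, n = 5 pairs). In pairs 199 and 220 the sign depended on the dye orientation.

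Sele, the gene of the selectin made by activated endothelium, was positive in 4 of 5 pairs. Its values with DMO on Cy3 were 0.59, 0.077, 0.35, -0.33 and 0.64 in pairs 193, 194, 197, 199 and 220, and with DMO on Cy5 0.85, 0.33, -1.25 and 0.73 in pairs 193, 197, 199 and 220. Both arrays of pair 199 were negative and all 7 others positive. The mean was 0.21 ± 0.62 (SD, n = 5 pairs), and lay between 0.079 (without pair 193) and 0.46 (without pair 199) when 1 pair was left out.

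Selp, the selectin gene whose product endothelium and platelets keep in storage granules, was close to 0 in most pairs. It was at 0.056, 0.066, -0.22, -1.69 and 0.44 with DMO on Cy3 and at -0.081, -0.21, 0.87 and -0.072 with DMO on Cy5, in the same order of pairs. The arrays of pair 199 were 2.56 apart, the widest gap of any gene here, and the arrays had opposite signs in 3 of 4 swapped pairs. Its mean of -0.077 ± 0.24 (SD, n = 5 pairs) hides that gap, and lay between -0.14 (without pair 220) and 0.0061 (without pair 199) when 1 pair was left out.

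The 2 NF-kB subunit genes had means near 0. Nfkb1, which encodes a precursor and the DNA-binding subunit cut from it, had pair means of 0.046, 0.19, 0.17, 0.21 and 0.085 in pairs 193, 194, 197, 199 and 220, and 8 of 9 arrays were positive. The mean was 0.14 ± 0.070 (SD, n = 5 pairs). This narrow range came from averaging 2 features that did not follow each other. In pair 220 the first was at 0.59 and -0.64 and the second at -0.32 and 0.71, and in pair 199 the pair means were 0.67 and -0.25. Taken singly the features had SDs of 0.30 and 0.26 over the pairs.

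Rela, the gene of the subunit with the activation domain, was at -0.21, 0.22, 0.44, -1.32 and -0.38 in pairs 193, 194, 197, 199 and 220 with DMO on Cy3. With DMO on Cy5 it was at 0.075, 0.37, -0.046 and 0.42 in pairs 193, 197, 199 and 220. In 3 of 4 swapped pairs the first array was the lower one. The mean was -0.021 ± 0.41 (SD, n = 5 pairs), and ran from -0.13 without pair 197 to 0.14 without pair 199.

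Nfkbia spread over the widest range of pair means of the 8 genes. It was at -0.18, 0.78, -0.86, -0.24 and -0.78 in pairs 193, 194, 197, 199 and 220 with DMO on Cy3, and at 0.18, -0.91, -0.33 and -0.53 in pairs 193, 197, 199 and 220 with DMO on Cy5. Pairs 197, 199 and 220 were negative on both arrays, pair 194 was positive on its only array, and the arrays of pair 193 lay on either side of 0. The mean was -0.21 ± 0.65 (SD, n = 5 pairs), and ran from -0.46 without pair 194 to -0.042 without pair 197. Read beside Vcam1, the 3 pairs in which Nfkbia was negative on both arrays were those with Vcam1 at -0.67 or below. That limit was placed with the values known. In pair 194 the signs were opposite, with Nfkbia at 0.78 and Vcam1 at -0.60. A link between the genes was not tested.

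Irf1 split the pairs differently. Its log ratio was 0.55, -0.72, -0.31, -0.48 and 0.36 in pairs 193, 194, 197, 199 and 220 with DMO on Cy3, and 0.15, -0.36, -0.43 and 0.012 in pairs 193, 197, 199 and 220 with DMO on Cy5. Pairs 193 and 220 were positive on both arrays and pairs 194, 197 and 199 negative on all of theirs. The mean was -0.19 ± 0.45 (SD, n = 5 pairs), and ran from -0.33 without pair 193 to -0.063 without pair 194. In pair 194 Irf1 and Nfkbia, which are both known to respond to inflammatory signals, had opposite signs, at -0.72 and 0.78.

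In the comparison of the groups over all rows, limma called 0% of the 19478 rows at an adjusted p of 0.05, and 929 rows had an unadjusted p under 0.05. An ordinary test on the same pair means called 1 row. As this contrast chose the 8 genes, no test of it is given for them.

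How far the dyes alone separated the arrays was measured by 0.5 times the difference between the 2 arrays of a swapped pair (DMO on Cy3 minus DMO on Cy5). This quantity does not enter the pair means. If the arrays had been turned before deposit it is a dye effect, and if they had not, it is the comparison of the groups. Which of these the quantity is was not tested, and the heat shock medians given above kept their sign across the swap. Vcam1 was at -0.018 ± 0.072 (SD, n = 4 pairs; limma adjusted p = 0.868), with 0.055, -0.11, -0.042 and 0.024 in pairs 193, 197, 199 and 220. Icam1 was negative in 4 of 4 pairs, at -0.30, -0.047, -0.28 and -0.33, with a mean of -0.24 ± 0.13 (limma adjusted p = 0.164). Rela averaged -0.29 ± 0.29 (limma adjusted p = 0.246) and was negative in 3 of 4 pairs. Nfkb1, Nfkbia, Irf1, Sele and Selp averaged -0.039, -0.058, 0.092, 0.074 and -0.24, with limma adjusted p between 0.419 and 0.713. No member passed, where 0% of all rows did and 4082 rows had an unadjusted p under 0.05. The arrays had the same sign in 23 of 32 combinations of member and swapped pair, and the 9 opposite ones fell in pairs 193 (4), 199 (2) and 220 (3).

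Whether animal pairs differed by more than the 2 arrays of a pair was tested with an F test across the 9 arrays, with dye orientation as a term. The repeat arrays share their RNA extracts, so this test concerns the repeatability of a pair's value and not the groups of animals. Nfkbia differed between the pairs (moderated F = 18.5, limma adjusted p = 0.0483), and 4.9% of all rows did. The Nfkbia call was kept without pair 199 (limma adjusted p = 0.0127), where 10.8% of all rows passed. It was lost without pair 193, 194, 197 or 220, with a limma adjusted p of 0.120 to 0.343. In those fits 0%, 4.6%, 0% and 1.03% of all rows passed. The loss without pair 193 or 197 was therefore not particular to Nfkbia. Irf1 had the next highest F (11.2, limma adjusted p = 0.0946). It passed only without pair 199 (limma adjusted p = 0.0327), the fit in which 10.8% of all rows passed. Icam1, Sele and Vcam1 did not pass, with F of 8.86, 8.05 and 6.77 and limma adjusted p of 0.130, 0.146 and 0.180. Rela (F = 3.34), Nfkb1 (0.42) and Selp (0.24) were lowest, with limma adjusted p of 0.348, 0.892 and 0.956. Without pair 193 or 197 no row of the table passed, and 2621 and 1899 rows had an unadjusted p under 0.05.

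**Figure D2:**
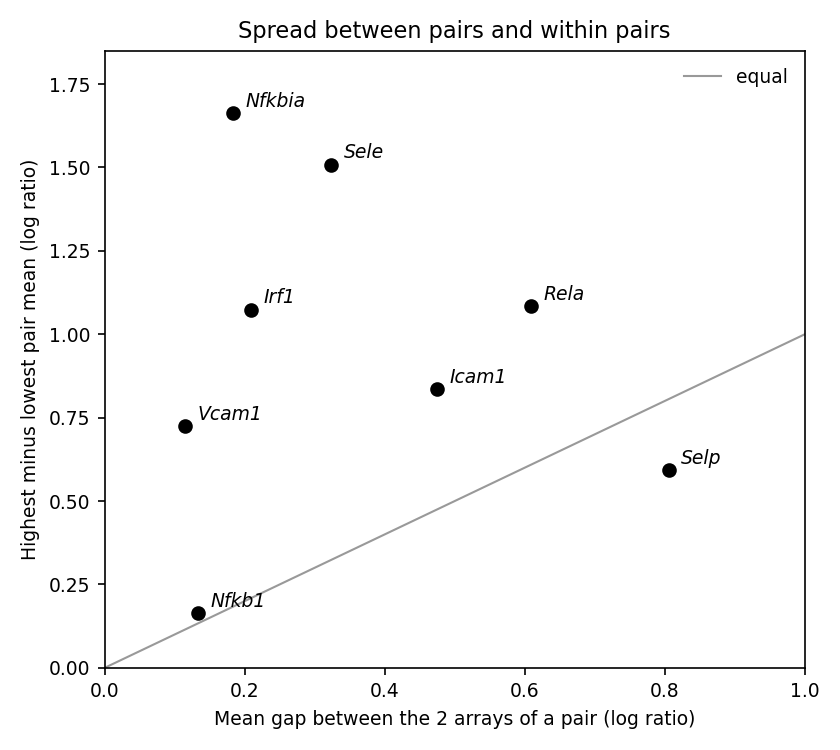
Highest minus lowest pair mean (vertical axis) against the mean gap between the 2 arrays of a swapped pair (horizontal axis), both in log ratio taken as log2, with 1 point per gene. The line marks equal values. Nfkbia lies far above the line (1.66 against 0.18), as does Vcam1 (0.73 against 0.11), whereas Selp lies below it (0.59 against 0.81).

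The genes nearest to Vcam1 were found by the root mean square difference in log ratio over the 9 arrays, among 9652 other named genes. They were Lsp1 (0.28), a leukocyte and endothelial actin-binding protein gene, Nol3 (0.34), a repressor of apoptosis, Galnt10 (0.37), a glycosyltransferase of mucin-type O-glycans, Tk2 (0.37), the mitochondrial thymidine kinase, and Trim11 (0.38), a tripartite motif ubiquitin ligase gene. The median gene was 0.80 away. Lsp1 had pair means of -0.061, -0.47, -0.94, -0.68 and -0.59 in pairs 193, 194, 197, 199 and 220. Galnt10, Tk2 and Trim11 were slightly positive in pair 193, at 0.018, 0.048 and 0.13. Over the 5 pair means instead of the arrays, 2 of these 5 genes were again among the nearest. Of the other members, Nfkbia came nearest to Vcam1 (0.58, rank 454) and Irf1 next (0.63, rank 879), while Sele was farthest (1.04, rank 8919). Over the 5 pair means Irf1 had rank 780 and Nfkbia 2737.

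**Figure D3:**
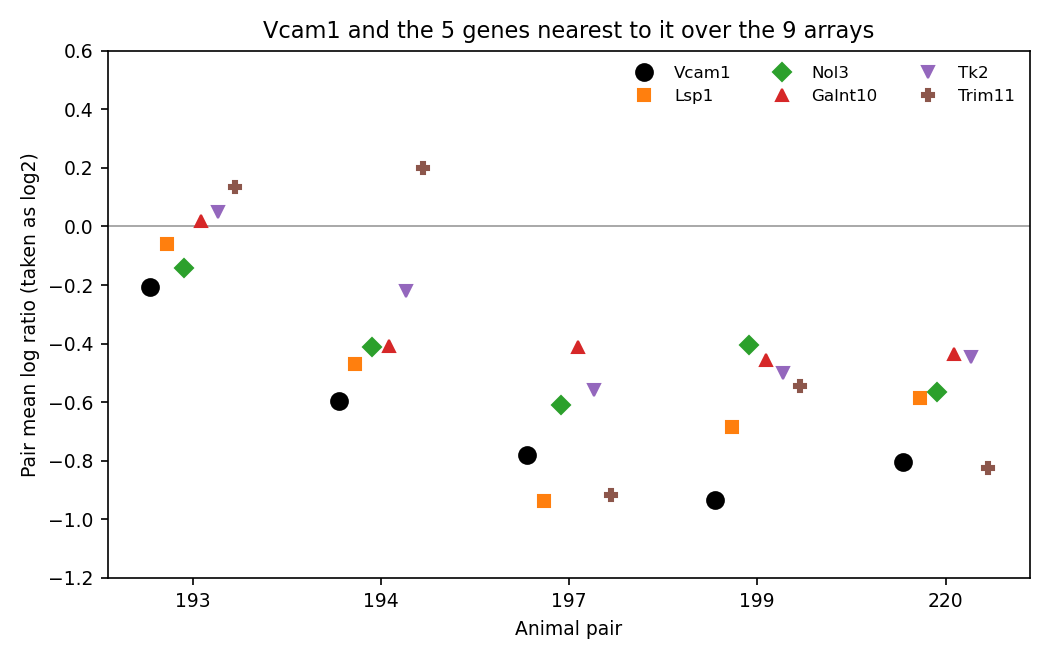
Mean log ratio of each animal pair (vertical axis, taken as log2) for Vcam1 and the 5 genes nearest to it over the 9 arrays. Each symbol is a gene, set side by side within a pair. All 6 genes lie closest to 0, or above it, in pair 193 or 194, and below -0.40 in pairs 197, 199 and 220.

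The counterparts of these molecules on leukocytes showed small values. Of 12 listed integrin and selectin ligand genes 6 were measured. Itga4 and Itgb1, whose products form the integrin that binds VCAM1, were at 0.065 ± 0.13 and -0.16 ± 0.11 (SD, n = 5 pairs). Itgb1 was negative in each pair mean, though its 2 arrays had opposite signs in 2 of 4 swapped pairs. Itgam, a partner of ICAM1, was at -0.064 ± 0.22. The largest mean was that of Cd44 (0.20 ± 0.50), and the median of the list was 0.045, against 0.0037 over all rows.

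Other endothelial adhesion genes, 12 of 18 measured, had a median of 0.066, with 9 positive and 3 negative means. Over all 19478 rows 9991 means were positive and 9487 negative. Pecam1 (0.075 ± 0.18) and Cdh5 (0.084 ± 0.27), which hold endothelial cells together, and Icam2 (0.035 ± 0.19) were near 0. Podxl, a sialomucin gene, had the largest mean (0.50 ± 0.53) and differed between the pairs (limma adjusted p = 0.0340), with pair means from -0.044 in pair 199 to 1.12 in pair 193.

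In the NF-kB pathway itself, 6 of 9 other subunit and inhibitor genes were measured, with a median of 0.020 and 3 means on each side of 0. Nfkb2, the second precursor subunit gene, was at -0.047 ± 0.12 and Nfkbib, a further inhibitor gene, at 0.057 ± 0.13, while Bcl3, a nuclear relative of the inhibitors, had the largest mean (0.13 ± 0.30). Of the 26 measured genes of the kinase and receptor arm 19 had negative means, with a median of -0.081. Over all 19478 rows 9487 means were negative. The genes share the same 5 pairs, so their signs are not independent. Ikbkb, the kinase that marks the Nfkbia product for degradation, was at -0.17, 0.39, -0.60, -0.52 and -0.13 with DMO on Cy3 and at -0.11, -0.69, -0.55 and -0.28 with DMO on Cy5. It was thus negative on 8 of 9 arrays and positive in pair 194, the pair in which Nfkbia was positive. That pair had 1 array, and a link between Ikbkb and Nfkbia was not tested. The sister kinase gene of Ikbkb, Chuk, was at 0.021 ± 0.071. The TNF receptor gene Tnfrsf1a was at -0.29 ± 0.42, with -0.77 and -1.09 in pair 197, the interleukin receptor gene Il1r1 at -0.080 ± 0.16, and the antagonist gene Il1rn had the largest mean (-0.35 ± 0.48). The ligand genes Tnf and Il1b were at 0.021 ± 0.19 and -0.13 ± 0.64, and Il1b had -1.25 in pair 194, with other pair means of -0.062 to 0.26.

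Known NF-kB targets, 25 of 26 measured, had 12 positive and 13 negative means and a median of -0.021. In the F test, which 4.9% of all rows passed, 4 of 25 differed between the pairs, among them Ccl2, the monocyte chemokine gene (limma adjusted p = 0.0437). Ccl2 was at 0.24, -0.31, -0.20, -1.10 and -0.57 with DMO on Cy3 and at 0.48, 0.11, -1.36 and -0.38 with DMO on Cy5. As for Vcam1, its highest pair mean was that of pair 193 and its lowest that of pair 199. The other 3 were the coagulation starter gene F3, with pair means from -0.84 in pair 194 to 1.36 in pair 197, the prostaglandin synthase gene Ptgs2, from -1.67 in pair 194 to 1.14 in pair 220, and the mitochondrial superoxide dismutase gene Sod2, from -0.36 in pair 193 to 0.68 in pair 197. These 3 shared a sign in each pair but 197, where Ptgs2 was at -0.34 and F3 and Sod2 were positive. Ccl2 had the other sign from them in pairs 193, 199 and 220. Cx3cl1, a membrane-bound chemokine gene, and Il6 were at -0.021 ± 0.62 and -0.076 ± 0.12, and Bcl2a1 had the largest mean (-0.45 ± 0.52).

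Among 14 measured genes of the IRF and STAT arm, 6 means were positive and 8 negative, with a median of -0.022. Irf2, which competes with Irf1 for its sites, was at -0.13 ± 0.12, and the feedback inhibitor gene Socs3 at -0.053 ± 0.22. Irf3 had the largest mean (-0.15 ± 0.41). Of 16 measured IRF1 targets 7 had positive and 9 negative means (median -0.034). The immunoproteasome gene Psmb9 was at 0.14 ± 0.23, and B2m, the light chain of MHC class I, at 0.41 ± 0.45, with both arrays of pairs 197 and 199 between 0.55 and 0.87. In the F test 2 of 16 passed, against 4.9% of all rows: B2m (limma adjusted p = 0.0450) and Tap2. In the comparison of the groups limma called none of the genes of these 7 lists, as it called no row of the table.

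**Figure D4:**
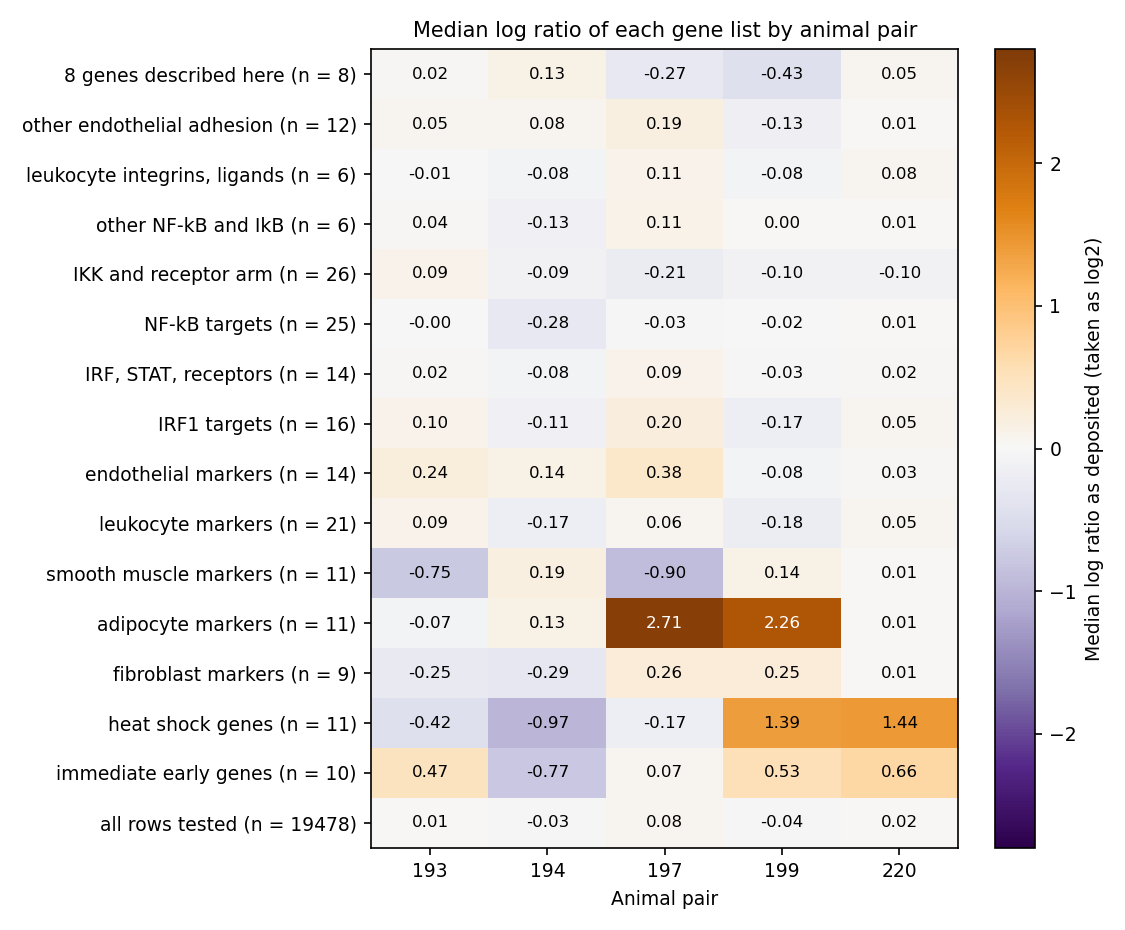
Median log ratio of each gene list in each animal pair (colour and printed number, taken as log2, as deposited), with lists down the page and pairs across. The 7 pathway lists stay between -0.28 and 0.20 in every pair, while adipocyte markers reach 2.71 in pair 197 and heat shock genes 1.44 in pair 220.

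In the F test between pairs, 9 of 11 adipocyte markers, 9 of 11 heat shock genes, 6 of 11 smooth muscle markers, 6 of 10 immediate early genes, 3 of 9 fibroblast markers, 3 of 14 endothelial markers and 1 of 21 leukocyte markers passed, against 4.9% of all rows. Leukocyte markers, 21 of 24 measured, had medians of 0.092, -0.17, 0.058, -0.18 and 0.045 in pairs 193, 194, 197, 199 and 220, and endothelial markers, 14 of 18 measured, had 0.24, 0.14, 0.38, -0.075 and 0.030. The endothelial median was highest in pair 197, where Vcam1 was at -0.89 and -0.67. It was lowest in pair 199, where Vcam1 was at -0.98 and -0.89. Adipocyte markers, 11 of 14 measured, had medians of 2.71 and 2.26 in pairs 197 and 199 and of -0.069 to 0.13 in the others. Smooth muscle markers, 11 of 14 measured, were at -0.75 and -0.90 in pairs 193 and 197 and at 0.011 to 0.19 in the others. The medians of fibroblast markers, 9 of 10 measured, lay between -0.29 and 0.26. The part of these cell types in the values of the 8 genes was not tested. In pair 194, where Nfkbia was positive and Irf1 most negative, heat shock genes (11 of 13 measured) had a median of -0.97 and immediate early genes (10 of 13 measured) of -0.77, with Fos at -3.50 against 1.02 to 2.12 on the other 8 arrays. In pairs 199 and 220 the heat shock medians were 1.39 and 1.44. Their part in the values of Nfkbia and Irf1 was not tested.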

How the data were processed

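The study measured RNA of rat thoracic aorta on two-colour arrays of 22575 features. What the authors deposited is a log ratio for each feature on each array, taken here as log2. Scanner, background correction, normalization, logarithm base and ratio direction were not given in the sources used here. Each array had a mean of 0. Probe numbers were joined to rows through their place on a grid of 215 by 105, a numbering chosen after seeing the data. For genes with 2 features, at least 1 of them reaching 1 in size in a pair, the median r between the features over the 5 pairs was 0.28 (224 genes), against -0.18 (258 genes) with the row numbers as deposited. By the platform annotation 12750 features had 1 gene symbol, 5 had several and 9820 had none; a check of gene IDs against the GRCr8 RefSeq table changed 0 symbols, and features of the same gene were averaged. The design names 10 samples, and the other one is not analysed here. No filter on dim features was possible. The number of arrays limits the precision. In the comparison of the groups, p-values measure the spread between the 5 pairs, whose litters are not given. In the F test they rest on the spread between repeat arrays of the same pair. For the differences within swapped pairs they measure how those differences spread over the swapped pairs.

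Tests were run with limma 3.58.1 in R 4.3.3 over 19478 rows, two-sided, with Benjamini-Hochberg adjustment at 0.05: pair means against 0 (5 pairs, dye swaps averaged), 0.5 times the difference within swapped pairs against 0 (4 pairs), and an F test between pairs (9 arrays, dye term). The tests were also run on simulated data with independent rows and planted shifts. That run cannot show how they behave where rows depend on each other, as they do here. Pairing comes from the labels, which name the same 2 animals on both arrays of a pair. The members, lists and named genes (the 8 members, 32 pathway genes of which 21 were measured, the largest mean of each list, and the 5 genes nearest to Vcam1) were chosen with earlier results of these data known; F3, Ptgs2, Sod2, Tap2 and Ltbr are named in addition because they passed the F test. Ptprc, Coro1a, Cd68 and Cd14 are named as further leukocyte markers beside Lyz2. Alternatives were the turned sign of the Cy5 arrays, other centring and scaling, single features, single dye orientations, a random block and leaving out each pair.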

Additional observations from a re-analysis of the deposited data

Results flagged for a closer look

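For the 8 genes, the farthest value among the 5 pair means, the 5 arrays with DMO on Cy3 and the 4 with DMO on Cy5 was set against Dixon's 95% critical value, in 24 sets of values. In 2 sets a value lay farther out than that, and chance gives about 1 in 20. Selp stood at 0.87 in pair 199 with DMO on Cy5, against -0.21 to -0.072 on the other arrays of that orientation. Nfkb1 stood at -0.075 in pair 193 with DMO on Cy3, against 0.12 to 0.19 on the other arrays of that orientation, as the mean of 2 features at 0.11 and -0.26.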

How the results depend on the processing

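The comparison of the groups called 0 rows in limma and in each of its alternatives except the ordinary test without moderation, which called 1; leaving out a pair gave 0 to 0. The dye part called 0 rows throughout. The F test between pairs called 955 rows, 626 without a dye term, and 0 to 2105 when 1 pair was left out: 0 without pair 193 or 197, 896 without 194, 200 without 220 and 2105 without 199. Of 97 alternative member means, 95 stayed within 1 SD, while Vcam1 (-0.13) and Nfkb1 (0.0064) did not when the arrays with DMO on Cy5 were turned. That count says little, as leaving out 1 of 5 pairs cannot move a mean that far. Single features repeat the mean of a gene with 1 feature. Signs also changed within 1 SD, among them Nfkbia (0.11) with the Cy5 arrays turned and Icam1 (-0.15) with only DMO on Cy3. With only DMO on Cy5, Rela (0.21) and Selp (0.13) changed sign. Of 65 alternative dye parts, none of which passed, 8 changed sign: with the single array of pair 194 Irf1 (-0.071), Nfkb1 (0.0064) and Nfkbia (0.11), with single features 1 feature of Nfkb1 (0.12), with no replicate block Nfkbia (0.071), and on leaving out 1 pair Sele (-0.056 to 0.14, negative without pair 199), Selp (-0.41 to 0.11, positive without pair 199) and Vcam1 (-0.042 to 0.012, positive without pair 197). The cause was not tested. In the F test, Nfkbia was also lost with no dye term (adjusted p = 0.0555) and with single features (adjusted p = 0.0507). In the comparison of the groups with a replicate block (pair as a random block over the 9 arrays) 0 rows were called, as in the paired dye part without the block. Centring each array on its median changed no sign of a mean among the 8 genes and none of the counts of negative means given for the 7 pathway lists. Signals were not used here, so which values come from dim features cannot be said.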

Other observations

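A pair of genes outside the adhesion and NF-kB members showed large differences between the pairs on the arrays of both dye orientations. Ltbr, the lymphotoxin beta receptor gene of the alternative NF-kB pathway, was at 0.59, 0.35, -1.15, -0.12 and -0.37 with DMO on Cy3 (pairs 193, 194, 197, 199 and 220) and at 0.57, -1.29, 0.055 and -0.45 with DMO on Cy5 (the same pairs without 194). In the kinase and receptor arm 1 gene of 26, Ltbr, passed the F test between pairs, a share near that of all rows (4.9%). Among leukocyte markers 1 of 21 passed, again near the share of all rows. That gene, the macrophage lysozyme gene Lyz2 (limma adjusted p = 0.00782), was at 1.21, -0.96, -0.85, -1.53 and -1.18 with DMO on Cy3 and at 1.16, -0.82, -1.48 and -1.40 with DMO on Cy5. Pair 193 was thus the only positive pair for Lyz2, and it was also the pair in which Vcam1 lay nearest to 0. Other leukocyte markers were mixed. Ptprc and Coro1a also had their highest pair means in pair 193 (0.31 and 0.56). Cd68 had its highest in pair 199 (0.54) and Cd14 in pair 197 (0.16). A link between Lyz2 and Vcam1 was not tested.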
